A study of Mus musculus with 8 samples.

Results

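The 4 nuclear factor I genes, *Nfia*, *Nfib*, *Nfic* and *Nfix*, were examined in single-nucleus ATAC-seq, which counts transposase insertions in open chromatin, of the embryonic mouse forebrain. The 8 samples were wild-type (WT) brain tissue with no transgene and no sorting, with 2 replicates of the cortex (CTX) and 2 of each ganglionic eminence, which are the medial (MGE), the lateral (LGE) and the caudal one (CGE), jointly called GE. All samples were taken at E12.5 except CTX replicate 2, which was taken at E14.5, so age and replicate cannot be told apart within CTX. No label says whether the replicates came from separate embryos or litters, so p-values measure only the spread between these samples.

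The members were every region of open chromatin that overlapped the body of an Nfi gene or the 20 kb upstream of it in genome build GRCm38, after the peaks of the 8 samples had been merged, and every counted motif whose name starts with NFIA, NFIB, NFIC or NFIX. These were 238 of 292532 merged regions and 4 of 579 motifs. *Nfia* held 112 regions, *Nfib* 94, *Nfic* 21 and *Nfix* 11. A peak was present in all 8 samples in 72 of the 238, and these were tested among the 68274 such regions of the genome, while 70 regions had a peak in 1 sample only.

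Nuclear factor I proteins are transcription factors that bind DNA as dimers, at a palindrome whose arms are TTGGC and GCCAA, and more weakly at a lone arm. NFIA, NFIB and NFIX are made in radial glia and in young cortical neurons, where they are known for moving progenitors towards differentiation, for the onset of glial genes and for the formation of the corpus callosum and the hippocampus. NFIC is expressed in many tissues and is known above all for tooth root formation. Whether a locus is open is not the same as whether its gene is transcribed, and no RNA was measured in these nuclei.

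The full palindrome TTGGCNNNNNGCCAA, which reads the same on both strands, was searched in the member regions because it is the full site of the family and these are its own genes. Its 3 places in *Nfia*, all intronic, are each shown on the plus strand of GRCm38 with 60 bases on either side and with the palindrome in capitals. The site of *Nfia* region 4 lay in the region over the main *Nfia* start site (chr4:97776446-97776580), that of *Nfia* region 31 further into the gene (chr4:97869199-97869333) and that of *Nfia* region 33 near an inner start site (chr4:97876061-97876195).
Nfia region 4: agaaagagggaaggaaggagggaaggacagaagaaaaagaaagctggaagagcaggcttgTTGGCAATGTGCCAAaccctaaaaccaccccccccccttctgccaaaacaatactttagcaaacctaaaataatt
Nfia region 31: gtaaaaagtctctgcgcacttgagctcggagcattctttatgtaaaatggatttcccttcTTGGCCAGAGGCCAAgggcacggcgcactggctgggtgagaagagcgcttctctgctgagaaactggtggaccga
Nfia region 33: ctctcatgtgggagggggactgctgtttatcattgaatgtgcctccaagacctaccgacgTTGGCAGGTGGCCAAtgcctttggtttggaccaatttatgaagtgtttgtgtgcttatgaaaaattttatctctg

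The 3 sites differed in whether the palindrome itself lay inside a called peak. The palindromes of *Nfia* regions 4 and 31 lay inside a peak in all 8 samples, and that of *Nfia* region 33 lay inside a peak in both CTX samples and in no GE sample. *Nfia* region 33 as a whole had a peak in 7 of the 8 samples, so GE samples also had peaks there that did not reach the palindrome. Of the 72 regions open in every sample 2 held the palindrome, against 244 of all 68274 regions tested (0.357%). The Nfi regions were wider than the others, with a median of 3556.5 bp against 1533 bp, and none of the 36 Nfi regions in the middle of their width range held it, so the 2 sites are given as places and not as an enrichment.

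A lone TTGGC arm is too common to mark a site, and occurred on either strand in 46.7% of the 32851 RefSeq promoter windows of 300 bp in GRCm38.p6. It is shown for *Nfix*, whose start-site region was open to such different degrees in CTX and GE. *Nfix* region 6 holds several *Nfix* starts. The 250 bases upstream held 1 arm at chr8:84775829-84776078 and at chr8:84772876-84773125. They held 0 arms at chr8:84780083-84780332 and at chr8:84773411-84773660. Only the stretch at chr8:84775829-84776078 is given, on the minus strand, as the gene reads, with the arm in capitals.
Nfix upstream: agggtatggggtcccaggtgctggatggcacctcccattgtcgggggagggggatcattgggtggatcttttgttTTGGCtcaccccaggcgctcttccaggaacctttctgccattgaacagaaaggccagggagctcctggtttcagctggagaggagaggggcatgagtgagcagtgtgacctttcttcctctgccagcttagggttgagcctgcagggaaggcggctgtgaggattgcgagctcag

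Before the members are described, the libraries were compared as a whole. The 39253 nuclei were spread over samples of 3465 to 6845, with 77387940 to 138873845 counts in peaks per sample and a median of 14584 to 22209.5 per nucleus. Between 15 and 56 barcodes were shared by any pair of libraries. The listed markers of CTX and MGE followed the labels. CPM are counts scaled to library size with the TMM factors of edgeR. *Emx1*, a cortical homeobox gene, had 103 and 138 CPM in CTX and at most 45.1 in GE. *Nkx2-1*, which specifies the MGE, had 419.5 and 287 CPM in MGE and at most 35.9 elsewhere. Of the CGE markers, *Nr2f1* (388 and 524 CPM) and *Nr2f2* (218 and 409) were highest in CGE. *Prox1* was highest in MGE, at 152 and 139 CPM against 107 and 117 in CGE. Of the LGE markers, *Meis2* had 457 and 496 CPM in LGE, above MGE and CGE but below the 511 of CTX replicate 1. *Ebf1* (246 and 235 CPM in LGE) and *Isl1* (62.4 and 72.8) were not highest in LGE. Summed over 8 glutamatergic markers the level was 1007 and 542 CPM in CTX and 345 to 434 in GE, and over 8 GABAergic markers it was 499.6 and 626 in CTX and 1105 to 2248 in GE. Summed markers of endothelial cells ranged from 135 to 205 CPM, of microglia from 192 to 254, of mural or mesenchymal cells from 162 to 219 and of erythroid cells from 96.6 to 119, each over all 8 samples, and 1 of 6 microglial and 2 of 5 erythroid markers had no count in at least 1 sample. In sums over nuclei, fewer nuclei of a type and less open chromatin per nucleus cannot be told apart.

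*Nfib*, *Nfia* and *Nfix* were more accessible in CTX than in GE, and *Nfic* was not. The level of a gene was taken as the sum of counts in all peaks over its body and the 20 kb upstream. In *Nfib* (chr4:82290173-82705750, minus strand) this sum came to 1209.9 and 869 CPM for replicates 1 and 2 of CTX, 358 and 393 in MGE, 387 and 359 in LGE and 445 and 370.1 in CGE. The 2 CTX samples were the highest of the 8 and did not overlap the GE samples. The CTX mean was 1039 ± 241 (SD, n = 2) and the GE mean 385 ± 32.5 (SD, n = 6), a log2 fold change of 1.43 (SE 0.14, adjusted p = 0.00511, edgeR).

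*Nfia* (chr4:97772734-98118874, plus strand) had 773 and 571 CPM in CTX, 374 and 441 in MGE, 304 and 321 in LGE and 338 and 295 in CGE, again with both CTX samples above all 6 GE samples. Its log2 fold change in CTX over GE was 0.97 (SE 0.14, adjusted p = 0.0130, edgeR). *Nfix* (chr8:84699876-84800344, minus strand) had 906 and 521 CPM in CTX, 389 and 239 in MGE, 246 and 218 in LGE and 264 and 236 in CGE. The CTX samples were again the highest, with a log2 fold change of 1.44 (SE 0.23, adjusted p = 0.0169, edgeR), although CTX replicate 2 lay nearer to MGE replicate 1 than to CTX replicate 1.

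*Nfic* (chr10:81396186-81455635, minus strand) was the exception. Its sum was 198 and 207 CPM in CTX, 245 and 183 in MGE, 177 and 164 in LGE and 167 and 184 in CGE, so the CTX samples lay within the range of GE and MGE replicate 1 was the highest of all. The log2 fold change in CTX over GE was 0.12 (SE 0.14, adjusted p = 0.682, edgeR). Across all genes tested, 4.49% were called higher in CTX and 0.979% lower, against 3 and 0 of the 4 members. The fold in CTX over GE was lower than that of *Nfia* in 91.3% of genes, of *Nfib* in 94.3%, of *Nfix* in 94.3% and of *Nfic* in 64.4%. The share of all gene sums with both CTX samples above all GE samples is not given here.

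**Figure D1:**
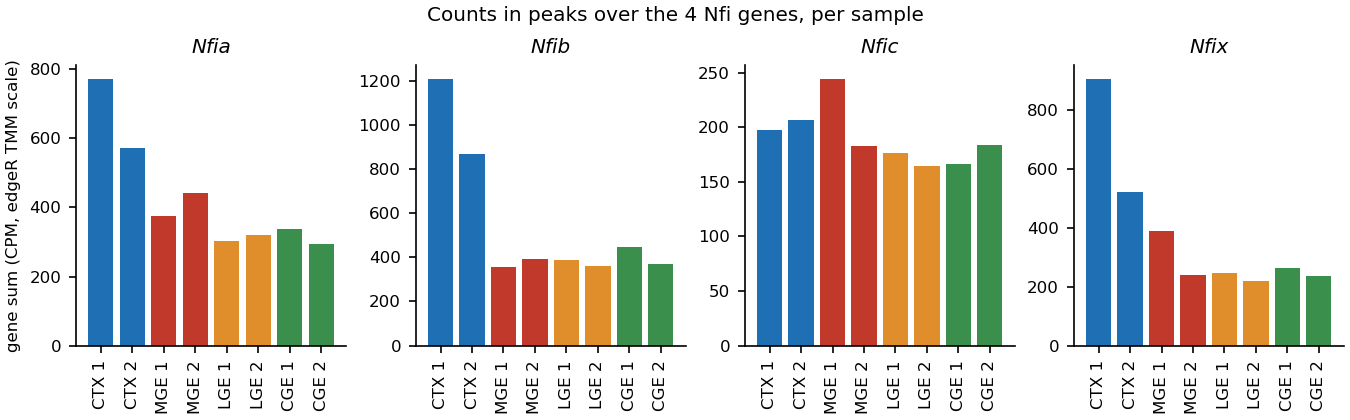
Bars give the gene sum of each sample in CPM on the TMM scale of edgeR, with an axis from 0 for each gene. Both CTX samples stand above all 6 GE samples for *Nfia*, *Nfib* and *Nfix*, and lie among them for *Nfic*.

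The higher sums in CTX went with more of the locus being called as peak. Peaks covered 229 and 132 kb of the *Nfib* window in CTX replicates 1 and 2 against 44.4 to 75.7 kb in the GE samples, and 156 and 96.3 kb of the *Nfia* window against 37.3 to 73.5 kb. For *Nfix* the covered length was 107 and 73.6 kb in CTX and 37.5 to 63.9 kb in GE, and for *Nfic* it was 30.7 and 27.5 kb in CTX and 20.3 to 34.7 kb in GE. Per covered kilobase the order changed. *Nfia* had 4.95 and 5.93 CPM per covered kb in CTX and 4.81 to 8.16 in GE, and *Nfib* had 5.27 and 6.58 in CTX and 4.89 to 8.72 in GE, so both groups overlapped. Only *Nfix* had both CTX samples above all GE samples on this scale, at 8.47 and 7.08 CPM per covered kb against 4.21 to 6.55. With the covered length as an offset none of the 4 genes was called by edgeR, and the log2 fold change was 0.58 for *Nfix*, 0.01 for *Nfic*, -0.18 for *Nfia* and -0.13 for *Nfib*. The covered length therefore moved with the counts for *Nfia* and *Nfib*, and the part that calling peaks separately in each library had in this was not tested.

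Without CGE replicate 2 only *Nfib* was called, with adjusted p = 0.0523 for *Nfia* and 0.0598 for *Nfix* (edgeR). Part of the counts also lay in peaks that overlap a neighbouring protein-coding gene, 17.1% to 49.3% for *Nfix* (*Dand5*, *G430095P16Rik*, *Lyl1* and *Trmt1*), 20.2% to 42.4% for *Nfia* (*E130114P18Rik*) and 19.2% to 33.9% for *Nfic* (*Celf5*), and none for *Nfib*.

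Peaks were present in a larger share of the Nfi regions in CTX than in GE. A peak was present in 88.7% of the 238 Nfi regions in CTX replicate 1, where 60.1% of all merged regions had one, and in 68.5% in CTX replicate 2, where 54.4% did. In the GE samples the share was 32.8% to 50% of the Nfi regions and 32.5% to 59.9% of all regions, so the libraries also differed in how many peaks they held. Peaks in both CTX samples and in no GE sample were found in 24 of the 238 regions, 15 of *Nfib* and 9 of *Nfia*, and in 3.14% of all regions, while 0 had a peak in all 6 GE samples and in neither CTX sample (0.790% of all regions). The widest of the 24 was *Nfib* region 48 (chr4:82456526-82462544, intronic), where CTX replicate 1 had 15.7 CPM and the other replicate 2.90. A peak in CTX replicate 1 alone was seen in 53 regions (14.8% of all regions), against 8 for CTX replicate 2 (7.91%).

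Among the 72 regions open in every sample, 38 were higher in CTX than in GE and 0 were lower (edgeR, adjusted p of 0.05 or less). Over all regions tested 9.49% were higher and 5.39% lower. The 38 were 23 of the 27 of *Nfib*, 10 of the 29 of *Nfia*, 5 of the 7 of *Nfix* and 0 of the 9 of *Nfic*. The median log2 fold change was 1.2 over the 72 regions and 0.03 over all regions tested, and by gene it was 1.73 for *Nfib*, 1.23 for *Nfix*, 1.04 for *Nfia* and 0.18 for *Nfic*. Both CTX samples exceeded all 6 GE samples in 38 of the 72 (12.6% of all regions), and 35 regions met both criteria. For the 0 lower calls, the unadjusted edgeR p was under 0.05 in 3 regions and DESeq2 called 1.

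The region with the largest fold of the 72 lay in an intron of *Nfia*, region 49 (chr4:97923203-97927911). It had 64.3 and 61.9 CPM in CTX, 4.51 and 3.65 in MGE, 2.63 and 2.58 in LGE and 4.49 and 1.72 in CGE, so the CTX samples agreed closely with each other and lay far above GE. The log2 fold change was 4.30 (SE 0.30, adjusted p = 0.00222, edgeR), and 2.64 (adjusted p = 0.00151) with the covered length as an offset. *Nfib* region 24 (chr4:82358680-82365408), which overlaps an exon, had the largest fold of that gene, with 29.8 and 40.9 CPM in CTX and 0.789 to 4.26 in GE, and a log2 fold change of 3.74 (SE 0.33, adjusted p = 0.00261, edgeR), which became 1.16 (adjusted p = 0.0512) with the offset. *Nfix* region 4 (chr8:84748743-84754109, intronic) was uneven within CTX, at 29.4 CPM for replicate 1 but 9.55 for replicate 2, against 2.60 to 4.37 in GE, with a log2 fold change of 2.42 (SE 0.40, adjusted p = 0.0103, edgeR), and 0.57 (adjusted p = 0.381) with the offset.

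The start sites themselves behaved differently from gene to gene. The region over the main *Nfia* start site, region 4 (chr4:97771432-97781283), was nearly level, with 129 and 139.7 CPM in CTX, 131 and 134 in MGE, 107 and 127 in LGE and 94.3 and 112 in CGE, and a log2 fold change of 0.20 (adjusted p = 0.344, edgeR). The *Nfib* start-site region 57 (chr4:82491038-82515321) had 344 and 341 CPM in CTX and 139.7 to 169 in GE, a log2 fold change of 1.15 (SE 0.09, adjusted p = 0.00242, edgeR) that was 0.15 (adjusted p = 0.589) with the offset. The *Nfix* start-site region 6 (chr8:84757337-84791211) had 324 and 152 CPM in CTX, 105 and 54.7 in MGE, 42.0 and 49.9 in LGE and 56.1 and 58.0 in CGE, a log2 fold change of 2.00 (SE 0.30, adjusted p = 0.00775, edgeR) that was 1.00 (adjusted p = 0.0300) with the offset. The *Nfic* start-site region 9 (chr10:81429094-81434693) had 62.6 and 67.9 CPM in CTX and 46.9 to 74.9 in GE, with groups that overlapped. In the class of regions over any protein-coding start site 6 of the 12 members were higher in CTX, where 2.23% of all such regions were, and in introns 25 of 49 members were, against 12.4%.

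**Figure D2:**
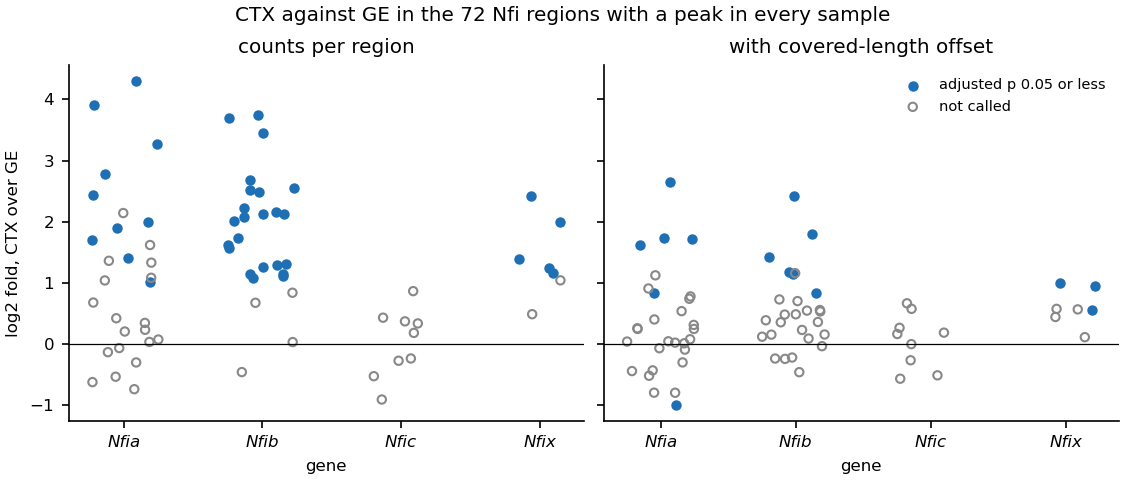
Each point is 1 of the 72 Nfi regions open in every sample, and the vertical axis is the log2 fold of CTX over GE, on the left from counts per region and on the right with the covered length of each sample as an offset. Filled points passed an adjusted p of 0.05 in edgeR: 38 on the left, all above 0, and 15 on the right, 14 of them above 0. The share of all regions called with the offset is not given here.

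With the covered length as an offset the count fell to 14 regions higher and 1 lower, and the median to 0.33. Over all regions tested the median with the offset was -0.06. The share of all regions called in CTX against GE with the offset is not given here, so these counts have no rate beside them. The CTX replicates were not equal either. Without CTX replicate 1 the count was 30 higher and 3 lower, without CTX replicate 2 it was 46 and 3, and without CGE replicate 2 it was 25 and 0.

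Within GE, edgeR called some Nfi regions between MGE and each of LGE and CGE. With both directions together, the rate was near that over all regions for CGE and a little above it for LGE. Between LGE and CGE it called none without the covered-length offset. None of the 4 gene sums was called between any pair of eminences (0 of 12 tests by edgeR, 2 of them at an unadjusted p under 0.05, and 0 by DESeq2). Of all gene sums 0.0726% were called over the 3 contrasts. The order of the gene means was MGE, CGE, LGE for *Nfia*, *Nfix* and *Nfic* and CGE, MGE, LGE for *Nfib*. For *Nfia* the means were 408 ± 47.5 CPM in MGE, 316 ± 30.3 in CGE and 312 ± 11.6 in LGE (SD, n = 2), and CGE and LGE differed by less than their spread. The MGE spread of *Nfix*, 314 ± 106 CPM, covered the LGE and CGE means of 232 ± 19.7 and 249.7 ± 19.9.

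Of the 72 regions, 8 were higher and 2 lower in MGE than in LGE, where 4.86% and 5.79% of all regions were (edgeR). Both directions together were only a little above the rate over all regions. With the covered length as an offset the balance turned, to 2 higher and 4 lower, with a median log2 fold change of -0.05 in place of 0.21. The offset also moved the median over all regions tested, from -0.01 to -0.17, so the Nfi median stayed above it. The share of all regions called with the offset is not given here. Against CGE 4 were higher and 3 lower in MGE, with 3.56% and 5.84% over all regions, so these calls were together near the rate over all regions. All of these calls fell in *Nfia* and *Nfib*. The 5 *Nfia* regions called against LGE were all higher in MGE, as were both called against CGE, while *Nfib* had calls in both directions. With the offset 1 *Nfia* region was higher against LGE and 3 against CGE, and the median of *Nfia* against LGE went from 0.22 to -0.01. Between LGE and CGE 0 Nfi regions were called higher and 0 lower by edgeR, with 0.00% and 0.00293% over all regions, 12 were at an unadjusted p under 0.05 and DESeq2 called 4. Of all 68274 regions 8247 were at an unadjusted p under 0.05 in this contrast (edgeR) and DESeq2 called 2754.

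*Nfia* region 31 (chr4:97868102-97870101), which holds the palindrome shown above, was the region that most set MGE apart. It had 28.5 and 16.3 CPM in CTX, 12.8 and 12.6 in MGE, 2.08 and 1.58 in LGE and 2.57 and 0.417 in CGE. Both MGE samples lay close to each other and above all LGE and CGE samples, and below CTX. The log2 fold change was 2.78 against LGE (SE 0.66, adjusted p = 0.0346, edgeR) and 3.09 against CGE (SE 0.67, adjusted p = 0.0280, edgeR). CGE replicate 2 held 33 counts in this region, and the fold against CGE was 2.31 without it and 4.95 without CGE replicate 1. The call against LGE was lost when any MGE or LGE sample was left out (adjusted p = 0.0673 to 0.122, edgeR), and that against CGE when either MGE sample was (adjusted p = 0.0633 and 0.106, edgeR). With all 8 samples in the fit neither was called (adjusted p = 0.156 and 0.142, edgeR). The peak was also longer in MGE, at 1496 and 1543 bp against 235 to 1039 bp in LGE and CGE, but with the covered length as an offset the region was still called, with log2 fold changes of 1.49 (adjusted p = 0.00145) and 1.94 (adjusted p = 0.000266, edgeR).

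*Nfib* regions 50 and 70 showed the directions of that gene. Region 50 (chr4:82470070-82474866, intronic) had 4.85 and 6.60 CPM in MGE, 0.809 and 1.33 in LGE and 2.22 and 2.17 in CGE, a log2 fold change of 2.42 against LGE (SE 0.35, adjusted p = 0.00611, edgeR), which was -0.094 (adjusted p = 0.922) with the covered length as an offset. Region 70 (chr4:82588649-82593648, intronic) was lowest in MGE, with 3.27 and 4.14 CPM against 9.73 and 8.20 in LGE and 8.53 and 7.97 in CGE. Its log2 fold change was -1.29 against LGE (SE 0.22, adjusted p = 0.0118, edgeR) and -1.16 against CGE (SE 0.22, adjusted p = 0.0187, edgeR), and neither was called with the offset (-0.81, adjusted p = 0.0589, and -0.51, adjusted p = 0.335). With all 8 samples in the fit neither was called (adjusted p = 0.311 and 0.383, edgeR). With each sample left out in turn the fold was -1.45 to -1.10 against LGE and -1.32 to -0.98 against CGE, and neither call held throughout. In CTX region 70 had 45.6 and 14.9 CPM, above every GE sample.

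**Figure D3:**
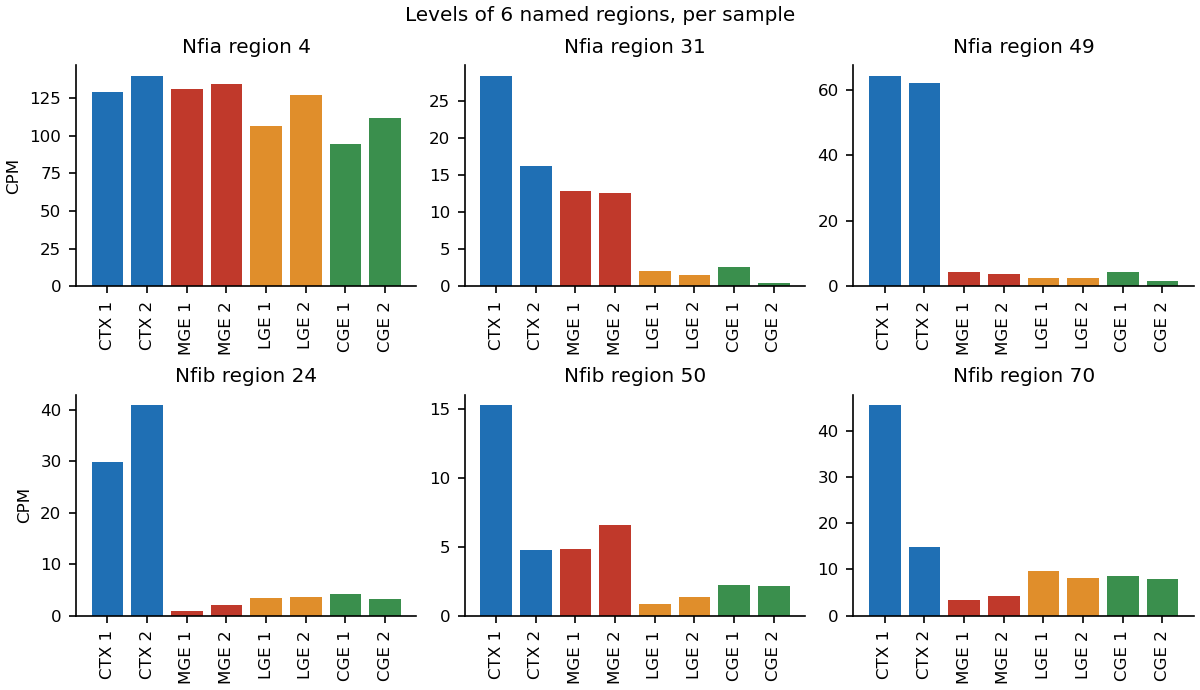
Bars give the level of each sample in CPM for 6 named Nfi regions, with an axis from 0 for each. *Nfia* region 4 is nearly level over the 8 samples, *Nfia* region 49 and *Nfib* region 24 are high in CTX alone, *Nfia* region 31 and *Nfib* region 50 are higher in MGE than in LGE and CGE, and *Nfib* region 70 is lowest in MGE.

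These calls among the eminences depended on the samples in the fit. When all 8 samples entered, so that the spread between the CTX samples of different age was included, no Nfi region was called between MGE and LGE and 1 was called between MGE and CGE (edgeR). DESeq2 called 23 and 16, and of all 68274 regions it called 11404 and 10693. Between MGE and LGE 6 were called without LGE replicate 1, and between MGE and CGE 4 and 11 were called without MGE replicates 1 and 2 and 3 and 2 without CGE replicates 1 and 2 (edgeR).

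CTX replicate 2, from E14.5, was then set beside CTX replicate 1, from E12.5. With 1 sample of each age there is no test, and a ratio of 2-fold was taken as the mark. Of the 72 regions 23 were at least 2-fold lower in CTX replicate 2 and 4 at least 2-fold higher, where 17.6% and 12.6% of all regions were. Per covered base pair the split was 10 lower and 4 higher, with a median log2 ratio of -0.09. The shares and the median of all regions on that scale are not given here, so this split has no rate beside it. The median log2 ratio was -0.40 over the 72 regions and -0.03 over all regions, and by gene it was -1.09 for *Nfix*, -0.81 for *Nfib*, -0.32 for *Nfia* and 0.17 for *Nfic*. The same ratio of replicate 2 over replicate 1 had a median over the 72 regions of 0.17 in MGE, 0.02 in LGE and -0.19 in CGE, where both samples were from E12.5. For *Nfia* the median in CGE was -0.48, lower than its -0.32 in CTX. For *Nfix* it was also negative in MGE, at -0.68, but did not reach the -1.09 of CTX. The *Nfib* medians of the eminences lay between -0.24 (CGE) and 0.44 (MGE), all above the -0.81 of CTX. Of all regions 30.2% passed 2-fold in either direction between the CTX replicates, against 3.52% to 9.21% between the replicates of an eminence. The part of age in the CTX ratios was not tested. Odd numbers also made up 9.54% to 10.4% of the matrix entries in every replicate 1 library and 5.17% to 5.85% in every replicate 2 library, and the part of this in the ratios was not tested.

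The gene sums moved the same way as the regions. The log2 ratio was -0.80 for *Nfix*, with 10.0% of genes having a lower ratio, -0.48 for *Nfib* (18.1%), -0.44 for *Nfia* (19.7%) and 0.06 for *Nfic* (55.5%). Between replicates of the same age, *Nfix* had a ratio of -0.70 in MGE, near that of CTX, -0.17 in LGE and -0.16 in CGE. The eminence ratios were -0.27 to 0.14 for *Nfib*, -0.20 to 0.24 for *Nfia* and -0.42 to 0.14 for *Nfic*. Per covered base pair the CTX ratio of *Nfib* was 0.32, of *Nfia* 0.26 and of *Nfic* 0.23, and that of *Nfix* -0.26. Peaks covered less of *Nfib* and *Nfia* in CTX replicate 2 (132 against 229 kb of *Nfib* and 96.3 against 156 kb of *Nfia*), while CTX replicate 1 was the more deeply sequenced, with 138873845 against 90206914 counts in peaks. The part of depth and peak calling in the ratio was not tested.

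Single regions moved further than the sums, and in both directions. *Nfia* region 40 (chr4:97893820-97895022, intronic) fell furthest, from 14.3 CPM in CTX replicate 1 to 0.663 in CTX replicate 2, which lay below all 6 GE samples (2.30 to 4.10). From replicate 1 to replicate 2 of CTX, *Nfib* region 50 went from 15.3 to 4.77 CPM and *Nfix* region 4 from 29.4 to 9.55. The opposite direction was seen in *Nfia* region 16 (chr4:97823055-97829002, intronic), with 18.9 and 49.5 CPM in CTX and 7.18 to 12.2 in GE, and in *Nfib* region 17 (chr4:82343679-82345825, intronic), with 26.3 and 58.5 CPM in CTX and 11.1 to 22.2 in GE. In both, each CTX sample was above every GE sample, and the older sample was the higher. *Nfic* region 13 (chr10:81452311-81453203, intronic) had the largest ratio upwards of its gene on 17 and 74 counts, too few to weigh, and *Nfic* region 8 (chr10:81424069-81427570) the largest downwards, with 20.6 and 11.1 CPM.

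**Figure D4:**
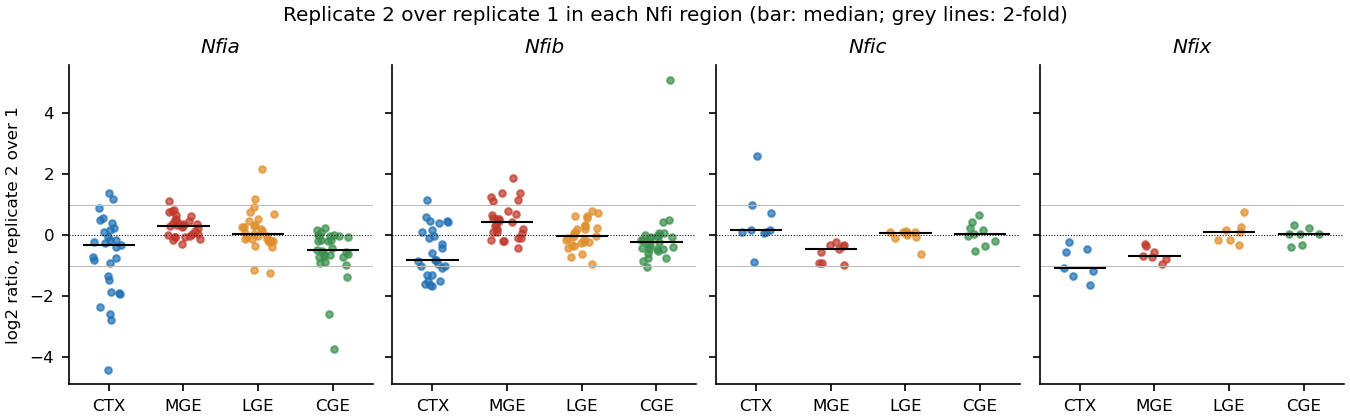
Points are the Nfi regions open in every sample, the vertical axis is the log2 ratio of replicate 2 over replicate 1 within each brain region, bars are medians and grey lines mark 2-fold. In CTX, where the replicates differ in age, the median lies below 0 for *Nfia*, *Nfib* and *Nfix*. At equal age it lies below 0 for *Nfic* and *Nfix* in MGE, for *Nfib* in LGE, and for *Nfia* and *Nfib* in CGE.

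To place the Nfi loci along the path from progenitor to neuron, the nuclei of each sample were ranked by the share of 12 progenitor markers in their counts over 12 progenitor and 13 neuron markers. The 25% of nuclei with the highest share, called the upper set, were compared with the 25% with the lowest, the lower set. These sets are ranges of a score and not cell types, and 193 to 493 nuclei per sample lay within 1 percentage point of a boundary. The median share was 65.7% to 81.1% in the upper sets and 16.7% to 36.4% in the lower, and the upper sets held more counts per nucleus in every sample, with a median of 14567 to 23864 against 10528 to 17429.5. Regions over marker genes were left out of the tests. Since all members of both lists are genes of the nuclei ranked, the fold of a locus between the sets describes where it was open and is no test of a cell type.

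Over all 8 samples, 40 of the 72 Nfi regions were higher in the upper set and 9 lower (edgeR with the sample as a block), where 28.2% and 29.0% of all regions were. By gene, 18 of *Nfia*, 11 of *Nfib*, 6 of *Nfic* and 5 of *Nfix* were higher. The largest folds were those of *Nfia* region 11 (chr4:97803419-97807411, intronic), with a log2 fold change of 2.91 (SE 0.45, adjusted p = 0.000311, edgeR), and of *Nfib* region 17, with 2.68 (SE 0.39, adjusted p = 0.000196). In the other direction *Nfia* region 30 (chr4:97864927-97866276, intronic) was lower in the upper set, with a log2 fold change of -2.20 (SE 0.22, adjusted p = 2.9e-05), as was *Nfib* region 70, with -1.23 (SE 0.26, adjusted p = 0.00217, edgeR). *Nfia* region 31 was higher in the upper set over all 8 samples, with 1.39 (SE 0.47, adjusted p = 0.0247, edgeR), with 1.99 within GE (adjusted p = 0.00280) and 0.06 within CTX (adjusted p = 0.959). A locus of this family thus held regions that were more open at either end of the ranking.

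The fold of the Nfi loci between the sets was larger in GE than in CTX. The ranking itself was narrowest in CTX replicate 2, where the median level of progenitor markers was 8.88 per 10000 counts in the lower and 20.3 in the upper set, against 4.32 and 20.7 in CTX replicate 1 and 4.53 to 10.3 and 24.2 to 38.4 in GE. The part of this in the folds was not tested. For *Nfia* the upper set held 531 and 627 CPM in MGE, 415 and 434 in LGE and 469.8 and 453 in CGE, and the lower set 203 and 192 in MGE, 188 and 150.5 in LGE and 209 and 141 in CGE. In CTX the upper set held 839 and 582 CPM and the lower 752 and 547. Every GE sample had a wide gap between its sets and neither CTX sample had, and the lower sets of CTX lay above the lower sets of all 6 GE samples. The log2 fold change of upper over lower was 1.44 within GE (SE 0.08, edgeR) and 0.12 within CTX (adjusted p = 0.604), and the difference between them was -1.31 (SE 0.17, adjusted p = 0.00578).

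*Nfib* and *Nfix* had the same shape. *Nfib* had 475 to 632 CPM in the upper and 167 to 259.7 in the lower sets of GE, and 1349.5 and 842 in the upper and 1127 and 849 in the lower sets of CTX. Its difference was -1.23 (SE 0.21, adjusted p = 0.0159, edgeR), between 1.36 within GE and 0.12 within CTX. *Nfix* had 274 to 541 CPM in the upper and 108 to 219 in the lower sets of GE, and 1097 and 512 in the upper and 762 and 517 in the lower sets of CTX, a difference of -0.99 (SE 0.22, adjusted p = 0.0381, edgeR), with a fold of 1.25 within GE and 0.26 within CTX. The *Nfix* call was lost when CTX replicate 2 was left out (-0.72, adjusted p = 0.151, edgeR) or when MGE replicate 1, LGE replicate 2 or either CGE sample was (adjusted p = 0.0561 to 0.0687).

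*Nfic* had a smaller fold in GE. It was slightly higher in the upper set in all 8 samples, with a log2 ratio of 0.04 to 0.43, and its fold was 0.35 within GE (SE 0.06, adjusted p = 0.000367, edgeR) and 0.24 within CTX (adjusted p = 0.138). The difference of -0.11 (adjusted p = 0.632) was not called. Of all gene sums 29.6% were called higher in the upper set within GE, 3.77% within CTX, and 2.08% had a fold called lower in CTX than in GE, against 4, 0 and 3 of the 4 members.

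Single regions were counted in the same way. Within GE 44 of the 72 were higher in the upper set and 8 lower, and within CTX 4 were higher and 3 lower, while of all regions 29.0% were higher and 30.0% lower within GE and 4.00% higher and 4.80% lower within CTX. The difference was called in 18 of the 72, each with the lower fold in CTX (7 of *Nfia*, 7 of *Nfib*, 2 of *Nfic* and 2 of *Nfix*), where 1.51% of all regions had such a call and 2.21% the opposite. The count was 4 without CTX replicate 2, 6 without LGE replicate 2 and 8 without CGE replicate 2. For the 0 differences called higher in CTX, 0 regions were at an unadjusted p under 0.05 by edgeR and DESeq2 called 0. Among the 18 were the start-site regions of *Nfia* (0.25 within CTX and 1.09 within GE) and of *Nfib* (0.19 and 1.49). CTX entered with 2 samples and GE with 6, so the fold within CTX is the less precise, and CTX replicate 1 had the larger of the 2 CTX folds for every gene.

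Markers moved with the sets as well as between the tissues. In the lower sets the median of glutamatergic markers was 8.42 and 5.91 per 10000 counts in CTX against 2.14 to 3.68 in GE, and that of GABAergic markers was 2.37 and 3.89 in CTX against 7.29 to 19.8 in GE. The lower sets of CTX and GE therefore held nuclei with open loci of different neuron classes, and the part of this in the difference was not tested.

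**Figure D5:**
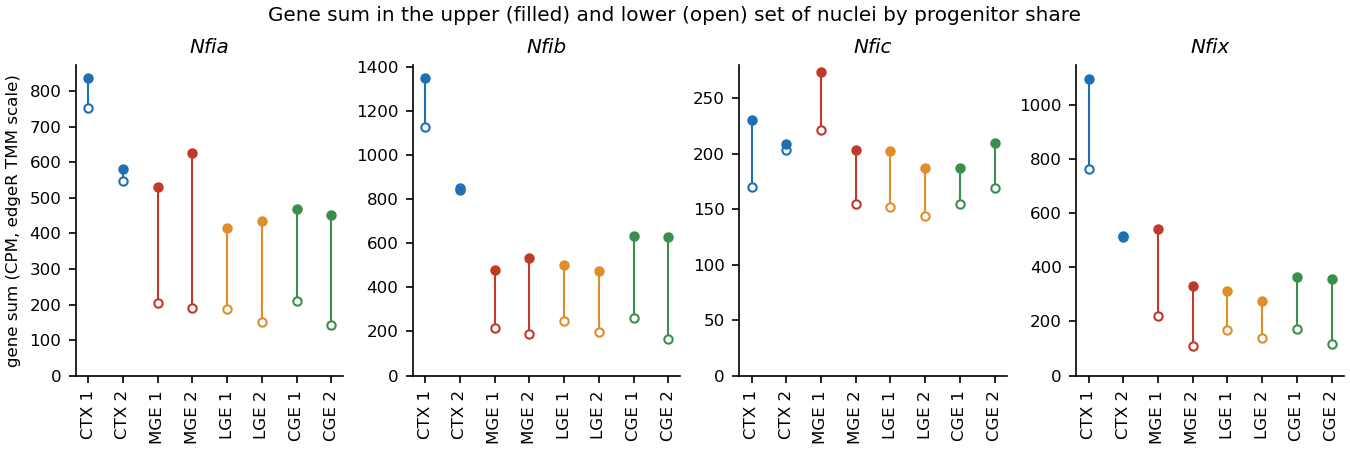
For each sample the filled point is the gene sum in the upper and the open point that in the lower set of nuclei by progenitor share, in CPM on the TMM scale of edgeR, with an axis from 0. For *Nfia*, *Nfib* and *Nfix* the filled point lies well above the open one in each GE sample, while in CTX replicate 2 both nearly coincide and in CTX replicate 1 the ratio is smaller than in GE. For *Nfic* the ratio is small in all 8 samples.

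NFI motifs were counted over all peaks of a nucleus by the authors, so their counts describe how much of the open genome carries the sequence and not binding. The 4 rows were NFIA, NFIX, NFIC and NFIC::TLX1, the last named for NFIC together with the homeobox factor TLX1. No row is named for NFIB. Since the family shares its site, the rows overlap and are not independent. NFIC::TLX1 had 307 and 248 CPM in CTX, 243 and 265 in MGE, 192 and 189 in LGE and 229.7 and 231 in CGE, so the CTX samples overlapped those of MGE. NFIA had 838 and 681 CPM in CTX, 719 and 647 in MGE and 617 to 639.9 in LGE and CGE, and here CTX replicate 2 lay below MGE replicate 1.

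None of the 4 motifs was called between CTX and GE (0.00% of all 579 motifs, edgeR), although 3 of the 4 had an unadjusted p under 0.05 and DESeq2 called 1. Of all 579 motifs 126 had an unadjusted p under 0.05 in this contrast (edgeR) and DESeq2 called 82. The log2 fold change was 0.31 for NFIC::TLX1 (SE 0.10, adjusted p = 0.168), 0.24 for NFIA (adjusted p = 0.226), 0.20 for NFIX (adjusted p = 0.220) and 0.51 for NFIC (SE 0.24, adjusted p = 0.286, edgeR). Nor was any called among the eminences (0.00%), where 3 of the 12 tests had an unadjusted p under 0.05 and DESeq2 called 2, both of NFIC::TLX1, which was lower in LGE than in MGE (adjusted p = 0.000326) and in CGE (adjusted p = 0.0364). Of all 579 motifs DESeq2 called 5 between MGE and LGE, 7 between MGE and CGE and 14 between LGE and CGE. In the same order 25, 17 and 60 had an unadjusted p under 0.05 (edgeR). The counts of NFIC differed widely between replicates, with 365 and 608 CPM in MGE and 251 and 394 in LGE. CTX replicate 2 was below CTX replicate 1 for all 4, with log2 ratios of -0.21 to -0.38.

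The motifs followed the sets in the same direction as the loci, at a much smaller size. Within GE the log2 fold change of upper over lower was 0.19 for NFIC::TLX1 (adjusted p = 1.1e-05), 0.12 for NFIC (adjusted p = 7.1e-05), 0.08 for NFIA (adjusted p = 0.000544) and 0.04 for NFIX (adjusted p = 0.0150, edgeR), and all 6 GE samples were above 0 for each. Within CTX none of the 4 was called, and the values ranged from -0.07 to 0.03. The difference between CTX and GE was called for NFIC::TLX1, at -0.21 (SE 0.05, adjusted p = 0.0264, edgeR), and for NFIA, at -0.15 (SE 0.03, adjusted p = 0.0260, edgeR), and not for NFIX (-0.09, adjusted p = 0.0650) or NFIC (-0.09, adjusted p = 0.192). Neither call held without CTX replicate 1 or without LGE replicate 2, and 1 of them held without MGE replicate 1 or CGE replicate 2. Of all motifs 29.0% were called higher within GE, 0.345% within CTX and 3.80% had a difference called lower in CTX.

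The palindrome gave a view that does not depend on the motif scan of the authors. Among regions away from start sites, the 196 that hold it had a median log2 fold of 0.63 in CTX over GE, against 0.11 for the 52730 without it. Between the sets the medians were 0.55 with and -0.05 without it within GE, and 0.08 and -0.03 within CTX. For CTX replicate 2 over replicate 1 they were 0.10 with and -0.14 without it, while all motif rows were lower in CTX replicate 2. In MGE over LGE they were 0.37 with and -0.03 without it. The regions with a palindrome away from start sites were wider, at a median of 1858 against 1342 bp. With start sites included, the 244 regions with a palindrome had smaller medians, 0.41 in CTX over GE and 0.38 between the sets within GE. Regions without it had 0.03 and -0.03. All these medians are descriptions of both classes without a test.

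Of 18 genes listed as partners or targets of NFI proteins, 3 were higher in CTX than in GE and 0 lower (edgeR), where 4.49% of all genes were higher and 0.979% lower, with a median log2 fold change of 0.46 against 0.00 over all genes. *Lhx2*, a homeobox gene of cortical progenitors, had a log2 fold change of 0.76 (adjusted p = 0.0211), *Apcdd1*, an inhibitor of Wnt signalling, 0.67 (adjusted p = 0.0274) and *Insc*, which orients the mitotic spindle, 0.64 (adjusted p = 0.0171). With the covered length as an offset none of the 3 was called, at 0.01 for *Lhx2* (adjusted p = 0.987), -0.28 for *Apcdd1* (adjusted p = 0.533) and 0.17 for *Insc* (adjusted p = 0.717, edgeR). None of the 18 was called among the eminences. In CTX replicate 2 over replicate 1 only *Aldh1l1*, an astrocyte enzyme, passed 2-fold, with a log2 ratio of -1.32. The next largest were -0.85 for *Slc1a3*, a glutamate transporter of radial glia and astrocytes, and 0.78 for *Hes1*, a transcriptional repressor that acts within the Notch pathway. Over all genes 4.00% were at least 2-fold higher and 7.20% lower. Per covered base pair the ratios were -0.48 for *Aldh1l1*, -0.08 for *Slc1a3* and 0.75 for *Hes1*, and none of these passed 2-fold.

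Over the 8 samples the log2 gene sums of *Nfia*, *Nfib* and *Nfix* resembled each other, with a Pearson r of 0.91 to 0.92 for each pair, while *Nfic* had 0.23 to 0.55 with them. The genes most alike in this measure, of 18594 compared, were *Runx1*, *Rab3gap2* and *Sox5* for *Nfia* (0.97 to 0.98), *Cwc27*, *Aqp9* and *Gzmb* for *Nfib* (0.99 to 1.00), *Pdgfa*, *Calcoco2* and *Ttll6* for *Nfic* (0.95 to 0.96) and *G430095P16Rik*, *Rapgef1* and *Hip1r* for *Nfix* (0.98 to 1.00). *G430095P16Rik* shares peaks with *Nfix*. These values rest on 8 points that share library and depth, and largely on the gap between CTX and GE.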

How the data were processed

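Nuclei of 8 wild-type mouse forebrain samples were profiled by droplet single-nucleus ATAC-seq. For each sample the authors deposited a peak list, raw counts per peak and barcode, and raw counts per motif and barcode, made with Cell Ranger ATAC 1.2.0 on GRCm38 (mm10) per the submitters' processing notes; the barcode filter and the motif threshold are not given in the sources used here. Peaks had been called in each sample separately, so a longer peak collects more counts. Odd numbers made up 5.17% to 10.4% of the entries of a peak matrix, more in all replicate 1 than in all replicate 2 libraries, so most fragments entered with both ends and counts are not independent molecules.

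Overlapping peaks of different samples were joined into 1 region, and the counts of all nuclei of a sample were added up, because the sample is the replicate. GENCODE M21 gave 21938 protein-coding genes. Regions with a peak in all 8 samples, gene sums and motifs were each fitted as a whole table with edgeR 4.0.16 (R 4.3.3; quasi-likelihood test, TMM, filterByExpr) and Benjamini-Hochberg adjustment at 0.05, with all 8 samples for CTX against GE and the 6 GE samples for the eminences. A start-site region is one within 1000 bp of a protein-coding start. The progenitor ranking used counts over marker genes and 2000 bp upstream, and its upper and lower sets were fitted with the sample as a block. Ratios of single samples had 0.5 counts added. The separate fits of these sets within CTX and within GE were added after the data had been seen. Alternatives were DESeq2 1.42.0, no filter, total counts as library size, a covered-length offset, a replicate block and each sample left out. Sequences were read from GRCm38 and RefSeq with Python 3.11.15. No doublets were removed here, and the sources used here do not say how the authors treated them in these nuclei. On simulated counts the region test recovered 94% of 2-fold changes in CTX against GE, 72% between MGE and LGE and 36% in the difference of the fold between the sets. These counts had a fixed small dispersion and no age or library difference between replicates. Over all real regions the log2 ratio of replicate 2 over replicate 1 had an SD of 1.30 in CTX and 0.48 to 0.79 in GE. The simulation did not hold this spread, so its rates do not carry over to the real samples. Members, lists, rules and tests were chosen with earlier results of these data known.

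Named were all 4 genes, all 4 motifs, per gene the start-site region with the highest mean, the region with the largest fold of each direction in each comparison, regions with a palindrome, and the 3 genes most alike. One palindrome is not reported here.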

Additional observations from a re-analysis of the deposited data

Results flagged for a closer look

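In 7 of 36 measures taken over the 6 GE samples, 1 sample stood apart by Dixon's criterion at the 95% level. In all 7 this sample was MGE replicate 1 and it was the highest. The measures overlap, since a gene sum contains its regions and the motif rows share a site. The 6 samples also come from different eminences, so the 7 are not set against a rate expected by chance. The gap to the next sample as a share of the whole range was 0.759 for the *Nfic* gene sum, 0.732 for the *Nfix* gene sum, 0.711 for the NFIA motif, 0.631 for the NFIX motif, 0.740 for *Nfic* region 8, 0.747 for *Nfix* region 6 and 0.751 for *Nfix* region 1. MGE replicate 1 had the most nuclei (6845) and 138789944 counts in peaks, and the part of this in its level was not tested.

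The fold between the upper and the lower set of nuclei by progenitor share differed between CTX and GE, by edgeR, for 3 of the 4 genes and for 2 of the 4 motifs. The difference, CTX minus GE on the log2 scale, was -1.31 for *Nfia*, -1.23 for *Nfib*, -0.99 for *Nfix*, -0.21 for NFIC::TLX1 and -0.15 for NFIA. It was the same sign in *Nfic*, NFIX and NFIC, where it did not pass the threshold.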

How the results depend on the processing

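Counts of Nfi regions called by edgeR moved with several settings. In CTX against GE 38 regions were called, 15 with the covered-length offset, and 25 to 49 when each sample was left out in turn. In MGE against LGE 10 were called, 23 by DESeq2, 6 with the offset, 6 among regions with a peak in at least 4 samples, 0 with all 8 samples in the fit and 6 to 14 leaving out each sample. In MGE against CGE 7 were called, 16 by DESeq2, 3 among regions with a peak in at least 4 samples, 1 with all 8 samples and 2 to 11 leaving out each sample. In LGE against CGE 0 were called, 4 by DESeq2 and 2 with the offset, which moved the median log2 fold change over all regions to 0.26. Of the 4 gene sums 3 were called in CTX against GE, 0 with the offset and 1 to 3 leaving out each sample, and the offset turned the log2 fold change of *Nfia* to -0.18 and of *Nfib* to -0.13, as it turned *Nfib* region 50 in MGE against LGE to -0.094. Of the NFI motifs DESeq2 called 1 in CTX against GE and 2 among the eminences, where edgeR called 0. For CTX replicate 2 against 1, 27 regions passed 2-fold, 14 per covered base pair and 5 at 4-fold. The difference of the fold between sets of nuclei was called in 18 regions, 4 to 17 leaving out each sample, and in 2 motifs, 1 with total counts as library size and 0 to 2 leaving out each sample. For *Nfic*, where it was not called, it was -0.29 to 0.087 leaving out each sample, and above 0 only without CTX replicate 2. The cause of these changes was not tested. Regions without a call are not shown to be alike. On simulated counts a 2-fold difference between CTX and GE in the fold between the sets was often missed, but those rates do not carry over to the real samples.

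The replicate numbers were not taken to pair the samples in the main fits, since only 3 of 6 pairs of groups had a correlation above 0.1. The share of odd entries, however, went with the replicate number in every library. The correlation of the deviations of same-numbered samples was 0.03 for CTX and MGE, 0.16 for CTX and LGE, 0.15 for CTX and CGE, 0.07 for MGE and LGE, -0.04 for MGE and CGE and 0.29 for LGE and CGE. With the replicate block 36, 9, 7 and 0 regions were called in the contrasts above, and 25 regions passed 2-fold once the GE replicate ratio was divided out.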
